A study of Mus musculus with 6 samples.

Results

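The genes followed here belong to the response to low oxygen and to glycolysis. They are Hif1a, Epas1, Slc2a1, Pgk1, Ldha, Aldoa, Eno1, Bnip3, Egln3 and Adm, chosen by name from the pathway, with earlier results of these data known. All 10 were found among the 33276 genes of the deposited table. The libraries came from fibroadipogenic progenitors (FAPs), stromal cells of skeletal muscle that can become fibroblasts or fat cells. One group was taken from peripheral blood (circulating FAPs, 3 libraries) and the other from muscle (muscle FAPs, 3 libraries). Every library was from mice with middle cerebral artery occlusion (MCAO), a stroke model made by blocking a large artery of the brain. The labels enter MCAO in the field for strain and name no genetic strain, age, time after occlusion or sorting scheme, and mice without the occlusion were not analysed here. The comparison asks how these genes differ between FAPs in the blood and FAPs in muscle of such mice, so it does not bear on what the occlusion itself did.

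Cells sense oxygen through the hypoxia-inducible factors (HIFs). The alpha subunits, encoded by Hif1a and Epas1, are made all the time, and in the presence of oxygen the EGLN prolyl hydroxylases mark them for destruction by the VHL ubiquitin ligase. When oxygen is short the subunits persist, pair with ARNT and bind DNA at a short core word, which raises transcription of glucose transporters, glycolytic enzymes, the mitophagy receptor Bnip3, the hydroxylase Egln3 itself and the vasodilator peptide adrenomedullin (Adm). Because the control acts mainly on the protein, the mRNA of Hif1a or Epas1 is not a measure of HIF activity.

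The HIF core word is ACGTG or GCGTG, and it was searched on both strands in the 250 bases before each transcription start listed by RefSeq (build GRCm38.p6). Of the 10 genes 9 had such a window; Epas1 had none in the table. The word was found in at least 1 window of each of the 9 genes and in 13 of their 14 windows. Some windows of Eno1 and of Aldoa overlap and hold the same words, so the 13 are not separate matches. Of all 32851 windows of the same length 38.6% held it, so a match is common. The 4 windows below are shown because their genes are textbook HIF targets. Each is written 5′ to 3′ on the strand of the gene, ends just before the start, and has the core word on either strand in capitals; CACGTG reads as the core on both strands and is counted there on each.

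Pgk1, chrX:106186850-106187099, plus strand: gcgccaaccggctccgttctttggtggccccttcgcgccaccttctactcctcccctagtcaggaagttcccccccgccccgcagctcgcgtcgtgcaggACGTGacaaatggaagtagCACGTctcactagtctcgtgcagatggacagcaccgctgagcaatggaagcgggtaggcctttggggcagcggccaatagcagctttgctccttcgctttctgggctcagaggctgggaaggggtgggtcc

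Ldha, chr7:46845554-46845803, plus strand: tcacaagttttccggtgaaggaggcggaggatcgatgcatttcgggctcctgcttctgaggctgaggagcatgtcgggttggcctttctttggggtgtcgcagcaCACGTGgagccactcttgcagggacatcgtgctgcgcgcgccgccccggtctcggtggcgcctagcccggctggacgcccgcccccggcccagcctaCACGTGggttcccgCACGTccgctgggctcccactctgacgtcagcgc

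Slc2a1, chr4:119108495-119108744, plus strand: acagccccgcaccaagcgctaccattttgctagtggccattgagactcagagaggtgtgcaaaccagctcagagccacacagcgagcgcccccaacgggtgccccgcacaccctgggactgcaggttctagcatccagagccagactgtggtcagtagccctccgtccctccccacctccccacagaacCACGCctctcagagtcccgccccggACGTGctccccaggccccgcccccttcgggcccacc

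Bnip3, chr7:138909507-138909756, minus strand: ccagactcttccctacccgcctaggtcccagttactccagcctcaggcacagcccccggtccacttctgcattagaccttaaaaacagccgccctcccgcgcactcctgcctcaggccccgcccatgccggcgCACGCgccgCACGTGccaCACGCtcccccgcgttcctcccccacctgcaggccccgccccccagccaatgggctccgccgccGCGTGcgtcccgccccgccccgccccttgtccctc

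The coordinates belong to GRCm38.p6 and not to the build of the counts, which was GRCm39. RefSeq lists a further start for Ldha, and the start used in the Ldha window shown was not found among the GENCODE M21 transcripts. A match describes the letters and does not show that a factor binds there.

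Totals ran from 5522193 to 13813329 counts in circulating and from 17532558 to 23424039 in muscle libraries. 18S ribosomal RNA took 42.9% to 60.1% of the circulating and 27.8% to 32.3% of the muscle counts, which leaves from 3106011 to 7880709 and from 12663430 to 15864333 other counts. FAP identity was checked with 10 markers, among them Pdgfra, Ly6a and Cd34; all 10 had reads in every library, with a summed level of 26662 to 28335 CPM in circulating libraries and 57076 to 67867 CPM in those of muscle. Of these markers 8 had a negative log2 fold change (circulating minus muscle) and 2, Pi16 and Dpp4, a positive one, with a median of -1.19; edgeR called 1 lower (Gsn), and DESeq2 called 4 lower and 1 higher (Dpp4). CPM here means counts per 1000000 of the library size scaled by the trimmed mean of M values (TMM). Markers of other cell types had much lower sums. The 10 leukocyte markers summed to 100.1 to 122 CPM in circulating and 15.1 to 32.7 CPM in muscle libraries, and none of them was at 0 in any library. All 10 had a positive log2 fold change, with a median of 2.24. For these markers edgeR called none and DESeq2 called 3 higher, where it called 1.01% of all genes tested higher. The part of leukocytes in the results on the 10 genes was not tested. The 12 muscle fibre markers summed to 69.8 to 196 and 87.3 to 155 CPM, and 7 red cell markers to 131 to 302 and 73.2 to 373 CPM. In bulk RNA, fewer cells of a type and less RNA per cell cannot be told apart.

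None of the 10 genes passed the test across all genes (edgeR quasi-likelihood test, Benjamini-Hochberg adjusted p under 0.05), where 22 of 20248 genes tested passed (0.109%), 0.104% lower and 0.00494% higher in circulating FAPs. At an unadjusted p under 0.05 there were 2 of the 10, Hif1a and Epas1, both lower in circulating FAPs, beside 19.4% of all genes tested in either direction 9.64% on the lower and 9.71% on the higher side. In TMM-scaled CPM every circulating library lay below every muscle library for 4 of the 10, namely Hif1a, Epas1, Ldha and Aldoa. This held for 11.4% of all genes tested (27.7% in either direction). These 4 had a mean of at least 20 CPM, and of the 4736 genes at that level 1363 were lower in every circulating library. None of the 10 had every circulating library above, as for 16.2% of all genes tested. With DESeq2 1 of the 10 passed, Epas1, where 6.33% of all genes tested did, 5.32% lower and 1.01% higher. In data simulated from these libraries, changes were set only in genes at a mean of at least 20 CPM. The edgeR test found 0% of 50 such genes with a 2-fold change. It found 4% of those changed 4-fold, 40% of those changed 8-fold and 78% of those changed 16-fold, so even 4-fold differences were rarely called. Slc2a1, Eno1, Bnip3 and Egln3 had lower means, so these shares do not cover them.

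**Figure D1:**
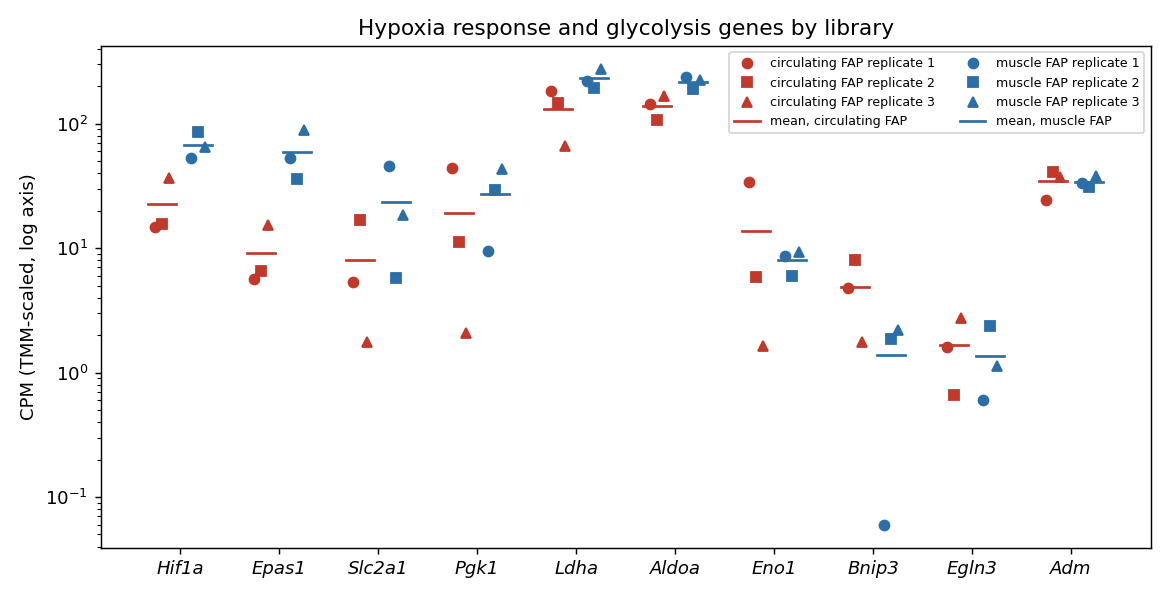
Level of each gene in each library, in TMM-scaled CPM on a log axis; points are libraries and lines are group means. The circulating points of Hif1a, Epas1, Ldha and Aldoa lie below all muscle points, while Pgk1 and Eno1 spread over 20.7-fold or more among the circulating libraries.

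In TMM-scaled CPM both alpha subunits were lower in every circulating library. Hif1a, the broadly expressed HIF subunit, was at 14.9, 15.7 and 36.9 CPM in circulating replicates 1, 2 and 3 and at 52.9, 85.2 and 64.5 CPM in muscle replicates 1, 2 and 3. The groups did not overlap in CPM, and circulating replicate 3 was the nearest to muscle. As a share of counts other than 18S they did overlap for Hif1a. Circulating replicate 3 (336 of 4233124) then lay above muscle replicate 1 (886 of 13137875). The means were 22.5 ± 12.5 and 67.6 ± 16.3 CPM (SD, n = 3), a log2 fold change (circulating minus muscle) of -1.59 ± 0.59 (SE) with an edgeR adjusted p = 0.207.

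Epas1 encodes the HIF-2 alpha subunit, which is best known from endothelium and from perivascular cells. It was at 5.69, 6.52 and 15.3 CPM in circulating and 53.5, 36.0 and 88.5 CPM in muscle replicates 1, 2 and 3. Again the groups did not overlap and circulating replicate 3 was the highest of its group. The log2 fold change was -2.70 ± 0.68 (SE), an edgeR adjusted p = 0.143 and a DESeq2 adjusted p = 0.00174. Over the edgeR settings and libraries left out, its log2 fold change stayed between -1.93 and -3.39 and it did not pass (see the plot of fold changes by setting). Among all genes tested 1.83% had a lower value, as had 2.05% of the 4736 genes at a mean of at least 20 CPM.

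Markers of cells in which Epas1 is well known were read beside it. The 6 pericyte and smooth muscle markers summed to 39.4 to 58.5 CPM in circulating and 49.1 to 156 CPM in muscle libraries, which overlap; 4 had a negative and 2 a positive log2 fold change. The pericyte gene Rgs5 was at 4.67, 5.32 and 5.60 against 13.1, 43.2 and 68.4 CPM (log2 fold change -3.00), whereas the smooth muscle genes Myh11 and Acta2 had log2 fold changes of 1.85 and 0.85. The 7 endothelial markers summed to 14.7 to 51.8 and 20.7 to 91.1 CPM, and Cldn5 and Tie1 were at 0 in at least 1 library. Their part in the difference of Epas1 was not tested.

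The 2 subunits were also compared within each library. Per kilobase of exon, there were 2.48, 2.28 and 2.29 Hif1a reads for each Epas1 read in circulating replicates 1, 2 and 3, and 0.939, 2.24 and 0.691 in muscle replicates 1, 2 and 3. Such a ratio within a library does not depend on how libraries are scaled, but the Epas1 level of circulating replicates 1 and 2 was only 1.93 and 1.86 times that of receptor genes taken to be silent. Muscle replicate 2 lay just under the circulating range and the other two muscle libraries had more Epas1 than Hif1a reads. On the log2 scale of counts the difference of means was 1.04, with p = 0.1 in a two-sided exact permutation test, the smallest p for 3 against 3, or 0.25 adjusted over 5 ratios.

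**Figure D2:**
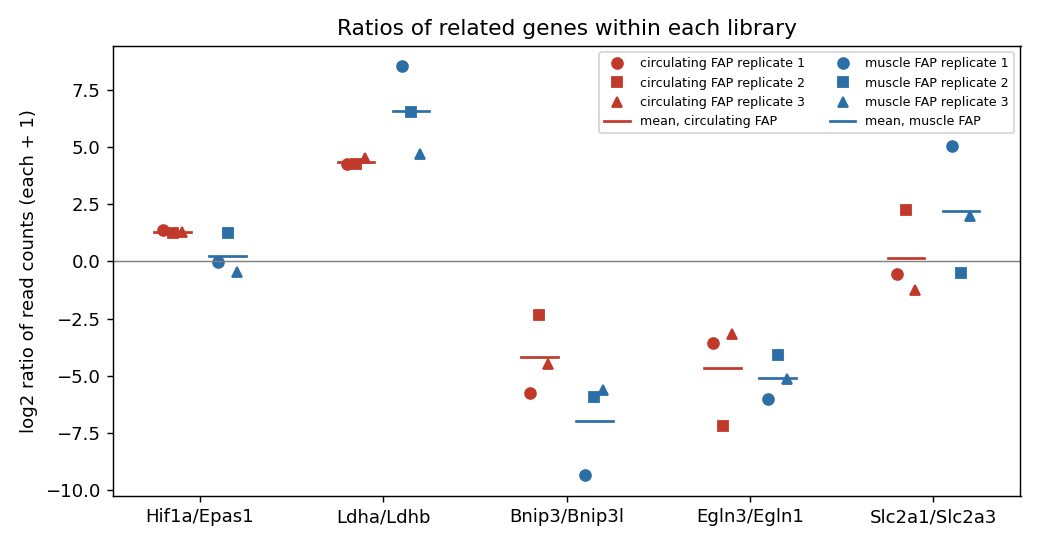
Log2 ratio of read counts of 5 pairs of related genes within each library, with 1 added to each count; points are libraries and lines are group means. The SD of the circulating libraries is 0.07 for Hif1a/Epas1 and 0.17 for Ldha/Ldhb, and that of the muscle libraries is 0.88 and 1.92.

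The partners and hydroxylases of the pathway were read from a list of 19 HIF subunits and regulators. All 19, which include Hif1a, Epas1 and Egln3, were tested. None passed in edgeR, and DESeq2 called 2 lower; 10 had a negative log2 fold change, the median was -0.34, and that of all genes tested was 0.15. Elob, Eloc and Rbx1, parts of the VHL ubiquitin ligase, were its most abundant genes, with log2 fold changes of 0.09 ± 0.50, -0.37 ± 0.55 and -0.96 ± 0.61 (SE). The signs of Elob and Eloc turned under other scalings. Arnt and Egln2 were picked out after their values were seen. Arnt, the shared partner of the alpha subunits, was at 29.5 ± 15.9 CPM in the blood and 87.1 ± 57.7 CPM in the muscle group (SD, n = 3), with overlap between the groups (log2 fold change -1.56 ± 0.64, edgeR adjusted p = 0.227). Egln2, a hydroxylase of the same family as Egln3, was at 31.1, 27.0 and 77.3 CPM in circulating and 9.26, 17.4 and 19.3 CPM in muscle libraries. Each circulating library lay above each muscle library for Egln2, and it did not pass (1.56 ± 0.66, edgeR adjusted p = 0.237).

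Egln3, a hydroxylase that HIF induces strongly in many cells, had between 5 and 47 reads per library. Its levels were 1.61, 0.665 and 2.75 CPM in circulating and 0.597, 2.39 and 1.12 CPM in muscle replicates 1, 2 and 3, and the groups overlapped (0.29 ± 0.69, edgeR adjusted p = 0.822). The related Egln1, the main oxygen sensor of the family, was far higher at 19.7, 118 and 25.6 and at 42.3, 41.9 and 42.0 CPM. Per kilobase of exon the reads of Egln3 were 0.110, 0.00761 and 0.145 of those of Egln1 in circulating and 0.0191, 0.0769 and 0.0362 in muscle libraries (two-sided exact permutation p = 0.8, 0.8 adjusted over 5 ratios). Among circulating libraries, replicate 2 had both the lowest Egln3 and the highest Egln1.

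How far each gene stood above stray reads was gauged with 388 receptor genes for pheromones, tastes and trace amines, which work in sense organs. Pooled, they held 7.23, 4.70 and 4.25 reads per kilobase of exon in circulating replicates 1, 2 and 3 and 5.27, 6.30 and 4.95 in muscle replicates 1, 2 and 3. Against this level Egln3 was at 0.399 to 2.21 times in circulating and 0.713 to 2.80 times in muscle libraries, so its reads could not be set apart from stray ones. Epas1 was at 1.93, 1.86 and 5.85 times in circulating libraries and at 30.4, 20.1 and 65.4 times in muscle libraries. Hif1a was at 4.79, 4.25 and 13.4 times against 28.5, 45.2 and 45.2 times. The Epas1 level of circulating replicates 1 and 2 was thus close to that of stray reads. So were, in circulating replicate 3, those of Slc2a1 (1.07 times), Bnip3 (1.66), Pgk1 (1.99) and Eno1 (0.656), and that of Eno1 in circulating replicate 2 (1.74). Bnip3 in muscle replicate 1 lay below it (0.0838). Circulating libraries held fewer counts other than 18S (3106011 to 7880709) than muscle libraries (12663430 to 15864333). Stray reads per kilobase thus took a larger share of these counts in every circulating library than in any muscle library. This limits the comparison in CPM of genes with few reads.

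**Figure D3:**
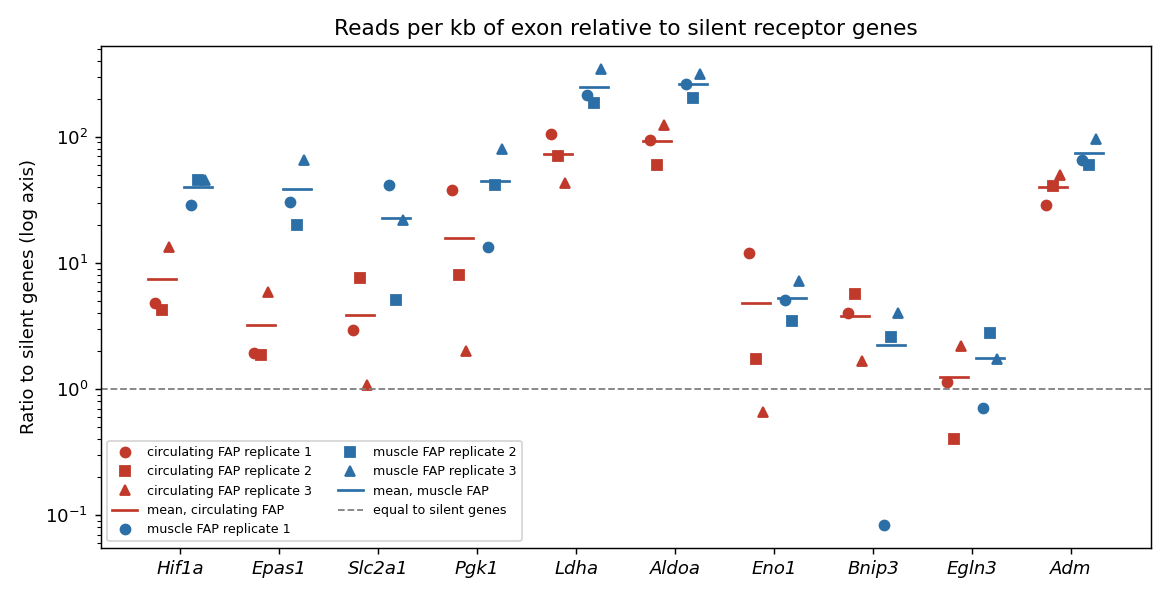
Reads per kilobase of exon of each gene divided by the pooled value of 388 silent receptor genes in the same library, on a log axis; points are libraries, lines are group means and the dashed line marks equality. Ldha and Aldoa stand 42.9 times or more above it in every library, Egln3 lies around it in both groups, and Epas1 is at 1.93 and 1.86 in circulating replicates 1 and 2.

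The glucose transporter Slc2a1 (GLUT1), which brings glucose into most cells, varied widely in both groups. It was at 5.40, 16.8 and 1.76 CPM in circulating and 46.1, 5.74 and 18.4 CPM in muscle replicates 1, 2 and 3. The highest was 9.54 times the lowest among circulating and 8.04 times among muscle libraries, and the groups overlapped. The log2 fold change was -1.56 ± 0.98 (edgeR adjusted p = 0.384), and it was -0.67 without muscle replicate 1 but -2.81 without circulating replicate 2. Against the sister transporter Slc2a3, the ratio per kilobase ran from 0.827 to 10.01 in circulating and from 1.47 to 72.5 in muscle libraries (two-sided exact permutation p = 0.4, 0.5 adjusted over 5 ratios). In the libraries with the highest ratios Slc2a3 lay below the silent genes, so these ratios are imprecise. It had 26 reads (0.763 times) in circulating replicate 2 and 22 reads (0.577 times) in muscle replicate 1.

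Of 11 genes for glucose and lactate transport edgeR called none and DESeq2 called 2 lower, with a median log2 fold change of 0.16. The most abundant was Bsg, the chaperone of the lactate carriers, at a mean of 95.5 ± 20.6 CPM in blood and 132 ± 30.2 CPM in muscle. Slc16a1, the lactate carrier MCT1, was at 10.8, 3.99 and 13.3 CPM in circulating and 75.9, 49.1 and 34.4 CPM in muscle replicates 1, 2 and 3. The groups did not overlap, and the log2 fold change was -2.50 ± 0.68 (edgeR adjusted p = 0.154, DESeq2 adjusted p = 0.00334).

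Aldoa and Ldha were the most abundant of the 10 genes. Aldoa, the aldolase that splits fructose bisphosphate, was at 144, 108 and 167 CPM in circulating and 239, 189 and 223 CPM in muscle replicates 1, 2 and 3. In TMM-scaled CPM all circulating libraries were lower, by a log2 fold change of -0.64 ± 0.37 (edgeR adjusted p = 0.353). As a share of counts other than 18S, circulating replicate 3 (1525 of 4233124) lay above every muscle library. The highest of those was muscle replicate 1 (4000 of 13137875). Ldha, which turns pyruvate into lactate, was at 182, 146 and 66.3 CPM and at 222, 196 and 277 CPM, a log2 fold change of -0.82 ± 0.44 (edgeR adjusted p = 0.326), with circulating replicate 3 the lowest.

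For both enzymes the difference was close to that of other abundant genes. The 4736 genes at a mean of at least 20 CPM had a median log2 fold change of -0.65, and 50.5% of them lay below Aldoa and 41.9% below Ldha. When libraries were scaled on those abundant genes, the median of all genes tested shifted by 0.70, the log2 fold change of Aldoa became 0.08 and that of Ldha -0.10. For Hif1a it was then -0.89 and for Epas1 -1.93.

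The other lactate dehydrogenase subunit, Ldhb, had few reads, 131, 57 and 25 in circulating and 9, 41 and 216 in muscle replicates 1, 2 and 3. Per kilobase of exon there were 9.04, 9.13 and 11.5 Ldha reads for each Ldhb read in circulating libraries and 196, 44.6 and 12.4 in muscle libraries. Every circulating ratio was below every muscle ratio (two-sided exact permutation p = 0.1, 0.25 adjusted over 5 ratios), and muscle replicate 3 was near the circulating range. Of the 50-base words of the annotated Ldhb transcripts 21% also occur in the pseudogene Gm5514, so its counts are uncertain.

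Pgk1 and Eno1, which act in the later steps of glycolysis, turned on 1 library. Pgk1, phosphoglycerate kinase, was at 44.4, 11.3 and 2.09 CPM in circulating and 9.44, 29.6 and 43.4 CPM in muscle replicates 1, 2 and 3. Eno1, the enolase of most tissues, was at 34.1, 5.86 and 1.65 CPM and at 8.66, 5.99 and 9.39 CPM. In both genes circulating replicate 1 was high and circulating replicate 3 low, with the highest 21.3 times the lowest for Pgk1 and 20.7 times for Eno1. The lowest values rest on 19 and 15 reads, near the level of stray reads, so these ratios are imprecise. Of all genes tested 95.6% had a smaller such ratio than Pgk1 and 95.5% a smaller one than Eno1 among circulating libraries, where the median ratio was 2.58. The log2 fold changes were -0.51 ± 0.98 for Pgk1 (edgeR adjusted p = 0.781) and 0.79 ± 0.96 for Eno1 (edgeR adjusted p = 0.644). Without circulating replicate 1 they were -2.11 and -1.17, so the sign of Eno1 turned.

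These 2 genes have close copies in the genome. Of the 50-base words of annotated Pgk1 transcripts 53.9% also occur in another gene, nearly all of them in the processed pseudogene Pgk1-rs7, and 26% of those of Eno1 do, chiefly in Eno1b. Whether reads that fit several places were counted is not given in the sources used here, so the levels of both are uncertain and may be too low. Eno1b itself had between 3 and 12 reads per library. The muscle enolase Eno3 had 222, 93 and 210 reads in circulating and 28, 275 and 696 reads in muscle replicates 1, 2 and 3, and the neuronal enolase Eno2 had 6, 12 and 18 against 140, 36 and 227. For Ldha 9.26%, for Aldoa 5.13% and for Hif1a 5.74% of the words were shared, and for Epas1, Egln3 and Adm 0%.

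The list of 27 glycolytic enzymes showed the same mixture. Of its 26 tested genes none passed in edgeR, and 1 was higher and 1 lower with DESeq2. Of the 26, 14 had a negative log2 fold change, and the median was -0.20. Hk2, the hexokinase that starts glycolysis in muscle and proliferating cells, was the most abundant enzyme of the list, at 146, 167 and 322 CPM in circulating and 650, 485 and 571 CPM in muscle replicates 1, 2 and 3. The groups did not overlap for Hk2, whose log2 fold change was -1.43 ± 0.38 (edgeR adjusted p = 0.152, DESeq2 adjusted p = 0.0757). The summed level of the 27 enzymes was 1144, 755 and 1080 CPM in circulating and 1685, 1495 and 2093 CPM in muscle libraries, and as a share of counts other than 18S it was 0.199%, 0.183% and 0.232% against 0.215%, 0.233% and 0.270%. The muscle fibre markers, from cells rich in glycolytic enzymes, overlapped between the groups, and their part in the enzyme levels was not tested.

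Beyond pyruvate, 13 genes for its entry into mitochondria had 9 negative log2 fold changes and a median of -0.80, and edgeR called none (DESeq2 called 1 lower). The most abundant were the carrier subunit Mpc2 (-0.25 ± 0.75), Dld (-1.15 ± 0.57) and Pdha1 (0.08 ± 0.92), the last 2 being parts of the pyruvate dehydrogenase complex. Pdha1 ran from 6.64 to 134 CPM among circulating libraries. Pdk3, a kinase that switches that complex off, was chosen after its values were seen; it was at 0.657 to 1.43 CPM in circulating and 2.59 to 14.8 CPM in muscle libraries (-3.11 ± 0.80, edgeR adjusted p = 0.143, DESeq2 adjusted p = 0.00250). The 7 pentose phosphate pathway genes had a median of -0.05, and its most abundant gene Tkt was at 68.7 ± 5.93 and 55.7 ± 1.14 CPM (0.30 ± 0.45, edgeR adjusted p = 0.714).

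Bnip3, a mitochondrial receptor that draws damaged mitochondria into autophagy, had few reads. There were 66, 60 and 16 reads in circulating and 1, 37 and 45 in muscle replicates 1, 2 and 3, or 4.85 ± 3.11 against 1.38 ± 1.15 CPM (SD, n = 3). Muscle replicate 1 had a single read, and circulating replicate 3 overlapped with muscle in TMM-scaled CPM. The log2 fold change of 1.80 ± 0.94 did not pass (edgeR adjusted p = 0.313) and was 1.19 without muscle replicate 1. An antisense gene, Gm45507, shares 22.3% of the exon length of Bnip3, and 47.2% of the 50-base words of Bnip3 transcripts occur in other genes, so reads of the different genes could not be told apart here.

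Its relative Bnip3l (NIX), which clears mitochondria from maturing red cells, was far more abundant. Bnip3l was at 262, 41.5 and 41.3 CPM in circulating and 78.4, 119 and 112 CPM in muscle replicates 1, 2 and 3, with circulating replicate 1 again the highest. Red cell markers summed to 302, 131 and 256 CPM in the circulating libraries, and to 373, 73.2 and 169 CPM in the muscle libraries. The highest sum went with the highest Bnip3l in circulating and with the lowest Bnip3l in muscle libraries. The part of these markers was not tested. The log2 ratio of Bnip3 to Bnip3l differed by 2.79 between the groups (two-sided exact permutation p = 0.2, 0.333 adjusted over 5 ratios).

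Adm, the precursor of the vasodilator adrenomedullin, had close means in the groups. It was at 24.4, 41.3 and 37.6 CPM in circulating and 33.3, 31.0 and 37.8 CPM in muscle replicates 1, 2 and 3. The ranges overlapped and the means were 34.4 ± 8.83 and 34.0 ± 3.48 CPM (SD, n = 3). The log2 fold change was 0.02 ± 0.54 (edgeR adjusted p = 0.990), and it ran from -0.22 to 0.77 over the settings and libraries left out, negative under several of them. Per stray reads the order was different, with Adm at 28.6, 40.7 and 49.7 times the silent genes in circulating and 65.3, 59.9 and 96.6 times in muscle libraries. Among the 5 receptor genes for adrenomedullin 4 were tested and none passed in edgeR or DESeq2. Ackr3, a scavenger receptor that also binds CXCL12, was the highest at 541 ± 115 and 428 ± 91.0 CPM, and the coreceptors Ramp2 and Ramp1 were at 62.6 ± 8.11 and 98.7 ± 14.5 and at 55.6 ± 23.6 and 77.8 ± 20.5 CPM.

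**Figure D4:**
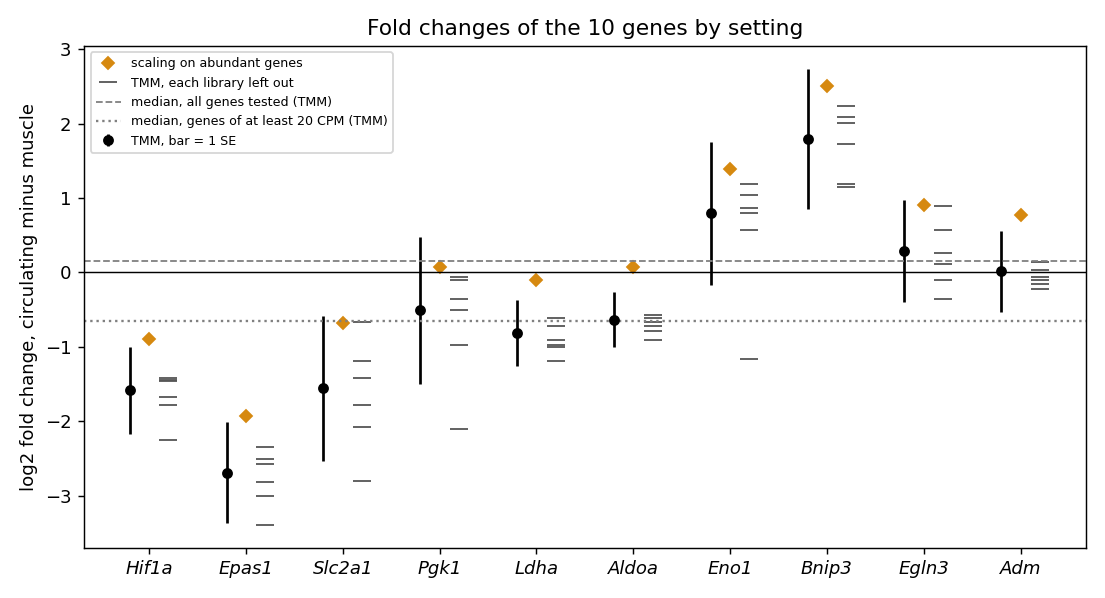
Log2 fold change, circulating minus muscle, of each gene. Black points are TMM values with 1 SE, orange diamonds use scaling on abundant genes, short bars leave out 1 library each, and the lines mark the medians of all genes tested (0.15) and of abundant genes (-0.65). The values of Hif1a, Epas1, Slc2a1 and Ldha stay below 0 throughout and those of Bnip3 above 0. Aldoa and Pgk1 cross 0 with scaling on abundant genes, Eno1 does without circulating replicate 1, and Egln3 and Adm do with some libraries left out.

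The other HIF targets were read from a list of 34 genes. Of the 28 tested that are not among the 10, edgeR called none and DESeq2 called 3 lower, while 22 of the 28 had a negative log2 fold change and 9 were lower in every circulating library. Of all genes tested 45.5% had a negative value and 11.4% were lower in every circulating library. Among the 4736 genes at a mean of at least 20 CPM these were 3709 and 1363 genes, close to the shares in the list. The 28 genes were not limited to that level, so the 2 sets are not alike. The median of the 28 was -0.81, beside 0.15 for all genes tested and -0.65 for abundant genes. Bhlhe40, a clock and stress repressor, was the most abundant, at 79.3, 172 and 125 CPM in circulating and 528, 289 and 306 CPM in muscle replicates 1, 2 and 3 (-1.58 ± 0.43, edgeR adjusted p = 0.153). The chemokine Cxcl12 was at 80.5 to 122 CPM in circulating libraries and at a mean of 307 ± 50.7 CPM (SD, n = 3) in those of muscle (-1.54 ± 0.37, edgeR adjusted p = 0.130, DESeq2 adjusted p = 0.0269), and the haem oxygenase Hmox1 at 95.1 ± 43.5 and 221 ± 28.8 CPM (-1.22 ± 0.45, edgeR adjusted p = 0.206).

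**Figure D5:**
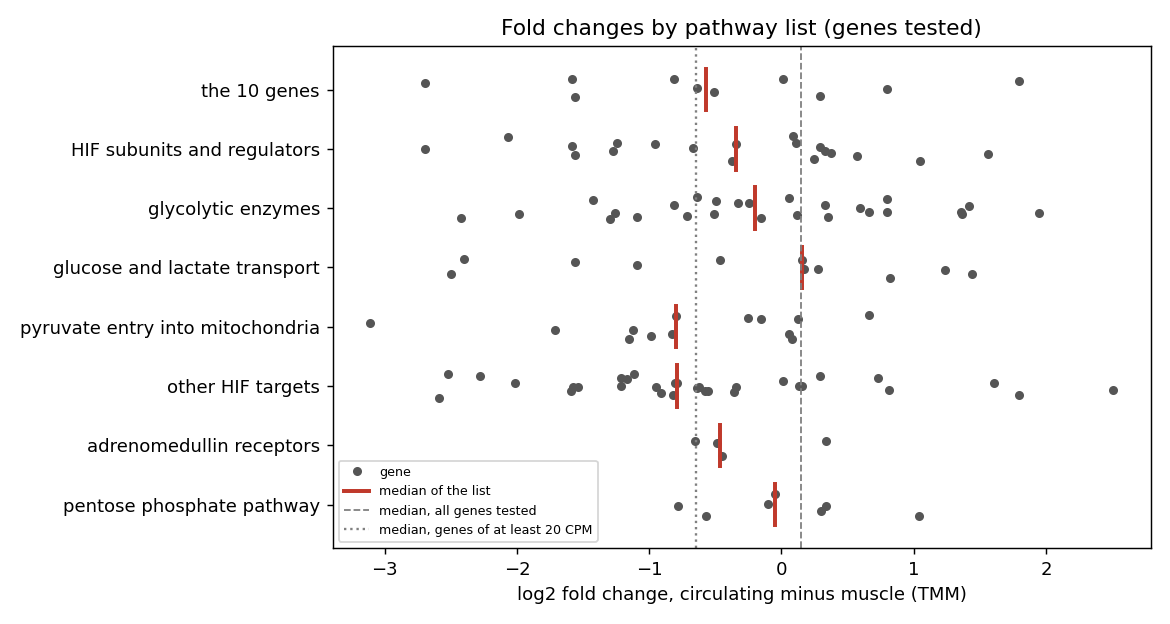
Log2 fold change, circulating minus muscle, of every tested gene of the pathway lists; dots are genes, red lines are list medians, and the vertical lines are the medians of all genes tested (0.15) and of genes at a mean of at least 20 CPM (-0.65). Each list has genes on both sides of 0, and its medians run from -0.80 to 0.16.

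Compared per kilobase of exon, both groups had Aldoa and Ldha at the top. In muscle FAPs the mean levels were 74.6 ± 8.76 CPM per kilobase for Aldoa and 69.9 ± 12.6 for Ldha, followed by Adm at 21.0 ± 2.15, Pgk1 at 12.2 ± 7.60, Hif1a at 11.5 ± 2.77, Epas1 at 10.6 ± 4.78, Slc2a1 at 6.68 ± 5.89 and Eno1 at 1.49 ± 0.333. In circulating FAPs Aldoa at 48.0 ± 10.3, Ldha at 39.7 ± 17.9 and Adm at 21.3 ± 5.46 kept the first 3 places. Epas1 was sixth in muscle and ninth in circulating FAPs, at 1.64 ± 0.949. The libraries of neighbours in the circulating order overlapped for every pair. In the muscle order they overlapped for every pair except Ldha and Adm, and Eno1 and Bnip3.

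Genes with the most similar pattern over the 6 libraries were sought among the other 4735 genes at a mean of at least 20 CPM, by the root mean square difference of centred log2 CPM. For Hif1a they were Ndufc2, Anapc11 and Fam20a (differences of 0.22, 0.22 and 0.24), for Ldha Snrpb, Psmb3 and Srsf11 (0.05, 0.09 and 0.10), and for Adm Dpep1, Thy1 and Lrp1 (0.13, 0.15 and 0.16). These are descriptions over 6 libraries.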

How the data were processed

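RNA-seq was run on 3 circulating and 3 muscle FAP libraries, grouped by their titles. Per the labels' protocols, RNA was extracted in RLT plus buffer and the TruePrep kit (V2 for Illumina), a transposase method, served for library preparation. The authors deposited raw counts of reads per gene symbol; Trim Galore, STAR, featureCounts and build GRCm39 are named, per the submitters' processing notes, and tool versions, strand setting and treatment of multiply mapped reads are not given in the sources used here. No label states that replicates are different mice, so the p-values measure only how these samples spread, and that spread may be technical.

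Counts were tested with edgeR 4.0.16 in R 4.3.3 (robust quasi-likelihood fit, TMM scaling, default filterByExpr filter, 20248 genes, Benjamini-Hochberg adjustment). The SE is the coefficient over the square root of its F statistic. DESeq2 1.42.0, other scalings, no filter, omission of 18S and of each library, and a replicate term were alternatives. Samples of a group differed far beyond sampling noise (chi-square per degree of freedom 56.1 to 85.4). The steps were tested on simulated counts. Exon lengths (union of exons) and shared 50-base words came from GENCODE M21 transcripts (GRCm38), matched by symbol. Promoter windows were RefSeq's and matched 9 of the 10 genes by symbol.

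The 10 genes and all lists were chosen with earlier results of these data known. Named besides them were the 3 most abundant genes of each pathway list, any pathway list gene past the threshold (none), relatives and copies of the 10, and genes marked as chosen after their values were seen. One gene of the list of other HIF targets is not reported here by name.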

Additional observations from a re-analysis of the deposited data

How the results depend on the processing

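The 10 genes gave no call in edgeR under any scaling, filter, replicate term or library left out, and 1 call (Epas1) with DESeq2. The count of 22 genes called in the whole table (21 lower, 1 higher) became 43 (42 lower) with RLE size factors, 2 (1 lower) with upper quartile scaling, 7 (4 lower, 3 higher) with scaling on abundant genes, 160 (154 lower, 6 higher) with no filter, 1282 (1078 lower, 204 higher) with DESeq2 and 1 (1 lower, 0 higher) with the replicate block; with library size only 2 were higher. Leaving out 1 library each gave 0 to 65 genes called, 0 to 63 lower and 0 to 2 higher; circulating replicate 1 left out gave the 65, and muscle replicate 3 left out gave the 0. The median log2 fold change of the 10 genes was -0.57, and 0.0810 with upper quartile scaling or 0.0772 with scaling on abundant genes; with 1 library left out it ran from -1.18 (circulating replicate 1) to -0.37. With upper quartile scaling and with scaling on abundant genes signs turned for Pgk1 (0.11 and 0.0777), Aldoa (0.05005 and 0.0766), Eloc (0.27 and 0.30), Bsg (0.18 and 0.20), Mpc2 (0.35 and 0.36), Ramp2 (0.0516 and 0.0910), Ramp1 (0.23 and 0.29) and Taldo1 (0.0308 and 0.0494). The signs of Adm, Elob and Pdha1, all near 0, turned with RLE size factors (-0.0793, -0.0278 and -0.0015), no filter (-0.21, -0.14 and -0.13), DESeq2 (-0.0799, -0.0278 and -0.0013) and the replicate block (-0.0148, -0.12 and -0.26), and that of Adm without 18S (-0.0342). With the replicate block Eno1 was at -0.12. The cause of these turns was not tested. With 1 library left out the values ran from -1.17 to 1.19 for Eno1, -0.35 to 0.90 for Egln3, -0.22 to 0.14 for Adm, -0.59 to 0.37 for Elob, -1.49 to 0.88 for Pdha1 and -1.87 to 0.11 for Mpc2. The log2 ratios within libraries kept their sign except Egln3/Egln1, which ran from -0.29 to 1.73, while Hif1a/Epas1 ran from 0.68 to 1.53, Ldha/Ldhb from -3.19 to -1.27, Bnip3/Bnip3l from 1.60 to 3.57 and Slc2a1/Slc2a3 from -3.38 to -0.60. No label says that equal replicate numbers share a mouse. Deviations of same-numbered libraries correlated at -0.01, 0.05 and 0.00 across 4736 genes, and those of differently numbered libraries at -0.08 to 0.08. The genes are not independent replicates, so these values cannot decide whether equal numbers share a mouse. Depth limits Egln3 (5 to 47 reads), Bnip3 (1 to 66) and, in circulating libraries, Slc2a1 (16 to 126), Eno1 (15 to 467), Pgk1 (19 to 608) and Epas1 (49 to 139).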
